A study of Mus musculus with 17 samples.

Results

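The 10 genes described here control how the kidney handles phosphate and vitamin D. They are the vitamin D hydroxylases Cyp24a1 and Cyp27b1, the vitamin D receptor Vdr, the sodium-phosphate cotransporters Slc34a1, Slc34a3, Slc20a1 and Slc20a2, the FGF23 co-receptor Kl (klotho) with the receptor kinase Fgfr1, and the parathyroid hormone receptor Pth1r. They were chosen by symbol, each matched exactly 1 row of the count table, and they are 10 of its 53379 genes. The exons of Cyp24a1, Slc34a1, Slc20a1, Slc20a2, Fgfr1 and Pth1r overlap a gene on the other strand by 83 to 732 bases, and the library kit does not mark strand, so reads from these stretches cannot be told apart. All 10 passed the filter on low counts that left 17766 genes for testing.

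RNA came from kidney cortex enriched for glomeruli of 17 mice on the BTBR background, each killed at 24 weeks of age. Wild type BTBR mice (n = 5), lean and untreated, were the controls, and 12 mice were ob/ob, homozygous for the ob mutation that removes leptin, on a background where this leads to obesity and diabetes. Of these, 5 received saline and 7 received atrasentan, which blocks endothelin A receptors. The dose was 5 mg per kg of body weight daily in drinking water, and treatment ran for 6 weeks from 18 weeks of age. The genotype labels read "WT-d30", "ob/ob-d30" and "BTBR ob" for the wild type, saline and atrasentan mice, and the sources used here do not say what the added d30 stands for. Each library is named below by its group and a number given in the order of deposit, which pairs nothing.

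In the kidney, filtered phosphate is taken back by the proximal tubule through the brush border transporters NaPi-IIa (Slc34a1) and NaPi-IIc (Slc34a3), while the PiT transporters Slc20a1 and Slc20a2 are made by most cells. Parathyroid hormone, through Pth1r, and FGF23, through Fgfr1 bound to klotho, both withdraw the brush border transporters from the membrane. Cyp27b1 makes the active hormone calcitriol and Cyp24a1 breaks it down. Parathyroid hormone raises Cyp27b1, FGF23 lowers it, and calcitriol acting through Vdr raises Cyp24a1.

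Slc34a1 is the phosphate transporter with the highest level in these libraries, so the 250 bases before its RefSeq start (build GRCm38.p6) are shown. They lie on the plus strand at chr13:55399398-55399647, inside the span of the GENCODE gene but outside its exons. They are written 5′ to 3′ along the gene, and capitals mark the core motif GTTAAT of HNF1, a transcription factor of proximal tubule cells, on either strand.
Slc34a1: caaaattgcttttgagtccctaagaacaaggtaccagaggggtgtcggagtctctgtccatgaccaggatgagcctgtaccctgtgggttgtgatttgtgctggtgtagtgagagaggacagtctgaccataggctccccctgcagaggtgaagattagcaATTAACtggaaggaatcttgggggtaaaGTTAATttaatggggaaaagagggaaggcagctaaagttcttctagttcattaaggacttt
The Slc34a1 window held this motif at 2 places, on the minus strand 89 to 84 bases and on the plus strand 61 to 56 bases before the start, and the window of the other brush border transporter, Slc34a3, held none. Of all 32851 windows of this length, 6.43% held at least 1. This motif was chosen after the values of these genes had been seen. RefSeq windows were at hand for 7 of the 10 genes (10 windows). There was none for Cyp24a1, Slc20a2 and Fgfr1, so these 3 genes were not searched. In none of the 10 windows did a pair of vitamin D receptor core motifs stand in direct repeat with 3 bases between. This arrangement is rare, at 0.289% of all windows. The core motifs, searched on both strands, were AGGTCA or AGTTCA or GGTTCA or GGGTCA or AGGTGA or GGGTGA or GGTGCG or AGGGCG. A match or its lack describes the letters of these windows only.

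Gene reads per library ran from 29161833 to 52528747. Genes with reads numbered 21396 to 23081 in atrasentan libraries, 24335 to 25313 in saline libraries and 23901 to 24877 in wild type libraries. Reads outside genes were at most 5.65% of a library with atrasentan and at least 5.95% in the other groups. These differences go with group, and their part in both comparisons with atrasentan was not tested. The libraries also differed in the level of tubule markers. The mean log2 CPM (gene counts scaled to library size) of 20 proximal tubule markers lay between 5.25 and 6.23 in wild type, between 6.17 and 8.26 in saline and between 3.17 and 6.15 in atrasentan mice, so every saline library lay above every atrasentan library. The difference was 1.62 for saline over wild type (exact permutation p = 0.0159, adjusted p = 0.0333), -2.78 for atrasentan over saline (exact p = 0.00126, adjusted p = 0.0053) and -1.16 for atrasentan over wild type (exact p = 0.0265, adjusted p = 0.0464). Saline libraries 1 and 3 held the most (8.26 and 8.25) and saline library 4 the least of its group (6.17). The mean of 12 podocyte markers fell from 8.81 ± 0.32 in wild type to 7.78 ± 0.44 with saline and 6.84 ± 0.61 with atrasentan (SD, n = 5, 5 and 7), and that of 10 macrophage markers was 3.09 ± 0.25, 3.57 ± 0.22 and 5.12 ± 0.69. All of the 74 markers had reads. Only 1 of them, the proximal tubule gene Slc7a13, was at 0 reads in some library. In bulk RNA, fewer cells of a type and less RNA per cell cannot be told apart.

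Compared per kilobase of exon, Pth1r and Slc34a1 were by far the most abundant of the 10 genes. In wild type mice Pth1r stood at 243.5 ± 49.95 CPM per kb and Slc34a1 at 142.4 ± 61.4 (SD, n = 5). Vdr (12.2), Kl (9.56), Fgfr1 (9.39), Slc20a1 (6.47), Slc20a2 (5.78) and Slc34a3 (3.97) followed, and Cyp24a1 (1.66 ± 1.19) and Cyp27b1 (1.61 ± 2.28) were lowest and within each other's spread. With saline the order changed. Slc34a1 came first at 541.7 ± 337.1 CPM per kb, ahead of Pth1r at 171.0 ± 45.1, and Cyp27b1 took the fourth place instead of the tenth at 27.7 ± 27.2, a level that overlapped that of Kl (31.3 ± 18.3) and Vdr (19.3 ± 7.70). With atrasentan Pth1r (91.0 ± 24.3) and Slc34a1 (50.97 ± 43.4) again led, Slc20a2 (5.80), Vdr (5.61), Slc20a1 (5.42) and Kl (5.18) lay within each other's spread, and Cyp24a1 was last at 0.445 ± 0.285.

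**Figure D1:**
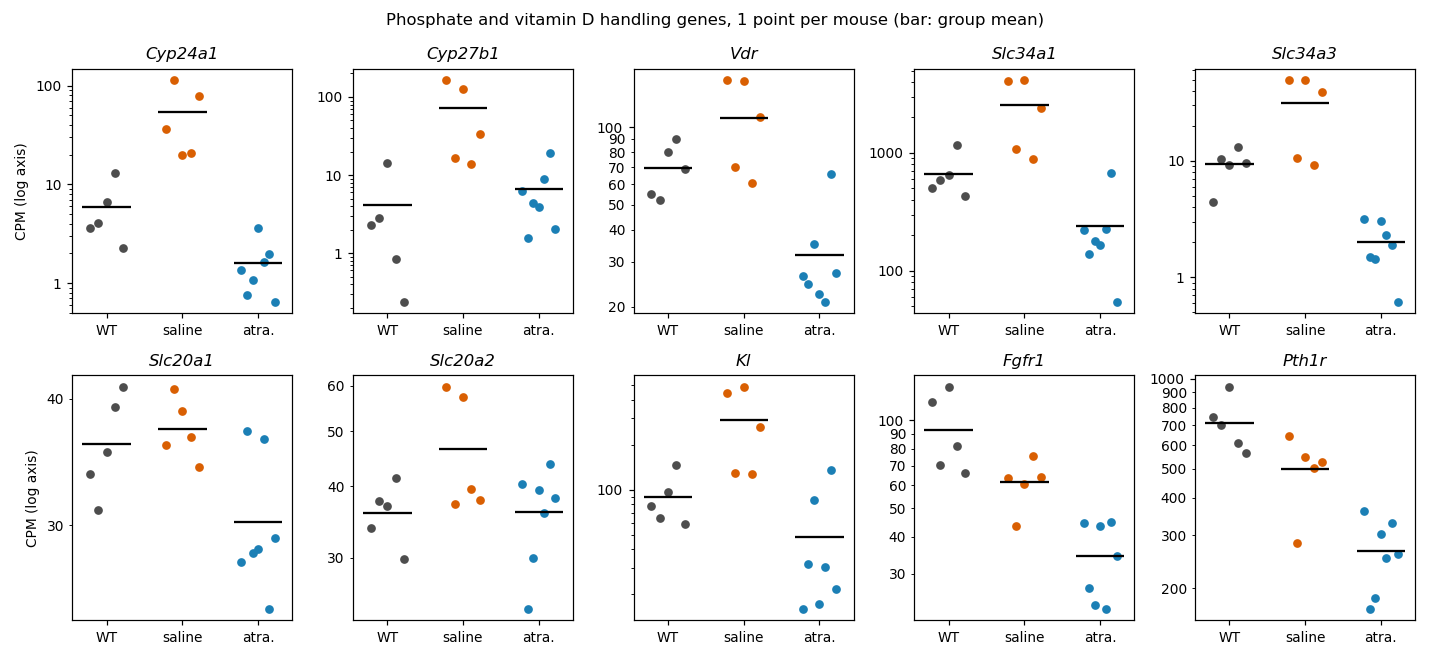
CPM of the 10 genes (log axes, 1 panel a gene with its own scale), with 1 point per mouse and a bar at the mean of wild type (WT, n = 5), ob/ob saline (n = 5) and ob/ob atrasentan (atra., n = 7) mice. Cyp24a1 in the saline mice lay above every mouse of the other groups, while Fgfr1 and Pth1r in the atrasentan mice lay below every wild type mouse.

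The first question the design poses is what differs in the ob/ob kidney without the drug. In saline ob/ob mice against wild type mice, both vitamin D hydroxylases and the brush border transporter Slc34a3 rose. Of the 10 genes 3 rose, none fell and 7 did not pass (edgeR quasi-likelihood test, Benjamini-Hochberg adjusted p under 0.05), where 5.12% of all tested genes were called, 3.21% higher and 1.91% lower. At an unadjusted p under 0.05, 8 of the 10 passed (beside 21.5% of all genes), with only Fgfr1 and Pth1r among them lower. DESeq2 called 5 higher and 0 lower, and limma-voom 2 and 0. The median log2 fold change of the 10 was 1.18, beside 0.01 over all tested genes. The groups did not overlap in CPM for 1 of the 10, Cyp24a1, beside 7.42% of all genes.

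Cyp24a1, the enzyme that inactivates calcitriol, lies on chromosome 2 (GRCm38, 170482708 to 170497145, minus strand). It had 3.59, 4.07, 6.58, 12.96 and 2.27 CPM in wild type libraries 1 to 5 and 36.6, 115.3, 19.97, 21.01 and 78.6 CPM in saline libraries 1 to 5. The lowest saline mouse stood above the highest wild type mouse. The mean rose from 5.89 ± 4.25 to 54.3 ± 41.6 CPM, a log2 fold change of 3.21 ± 0.58 (SE, edgeR adjusted p = 0.00886), or 9.23-fold. The call held when any 1 of the 17 libraries was left out (2.73 to 3.72, adjusted p of at most 0.0278). With the mean of the proximal tubule markers as covariate the value was 3.17 and missed the threshold (adjusted p = 0.0616), and none of the 10 genes was called in this comparison.

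Cyp27b1, the enzyme that makes calcitriol (chromosome 10, 127048250 to 127053006, plus strand), had 2.30, 2.84, 14.45, 0.852 and 0.236 CPM in wild type libraries 1 to 5. In saline libraries 1 to 5 it had 166.4, 16.6, 125.2, 14.1 and 34.0 CPM. The highest wild type mouse reached the level of the lowest saline mouse, and the other 4 saline mice lay above all wild type mice. The log2 fold change was 4.11 ± 0.99 (SE, edgeR adjusted p = 0.0273), with a 95% interval from 2.04 to 6.19. The call was lost without wild type library 1, 2, 4 or 5 or saline library 1 or 3 (adjusted p between 0.0541 and 0.0792), and without saline libraries 1 and 3 together the value was 2.37 (adjusted p = 0.343). With the proximal tubule covariate it was 1.25 (adjusted p = 0.815).

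The order of the saline mice differed between the hydroxylases. Saline libraries 1, 2, 3 and 5 lay above all wild type mice in both genes. Saline libraries 1 and 3 had the highest Cyp27b1 and intermediate or low Cyp24a1, and saline library 2 had the highest Cyp24a1 with low Cyp27b1. The log2 ratio of Cyp24a1 to Cyp27b1 was -0.05 ± 2.31 with saline and 1.37 ± 2.02 in wild type (SD, n = 5 each), and their difference of -1.42 did not pass (exact permutation p = 0.302, adjusted p = 0.302). It turned to 0.15 without saline libraries 1 and 3. The difference between atrasentan and saline mice was -1.74 (exact permutation p = 0.106, adjusted p = 0.159), and -3.31 without those libraries (adjusted p = 0.0125).

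**Figure D2:**
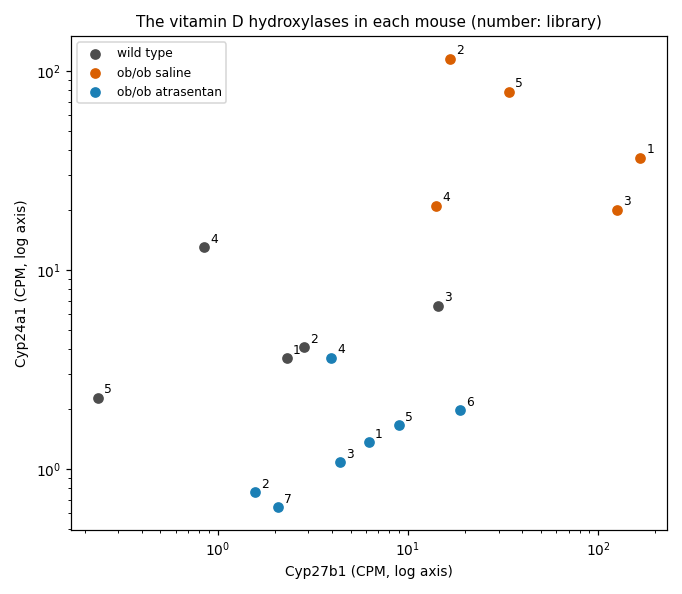
Cyp24a1 against Cyp27b1 in CPM (both axes log) for each mouse, numbered by library, in wild type (n = 5), ob/ob saline (n = 5) and ob/ob atrasentan (n = 7) mice. The saline mice lie at the top, with Cyp24a1 between 19.97 and 115.3 CPM, and the atrasentan mice along the bottom, with Cyp24a1 between 0.640 and 3.62 CPM.

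Among the phosphate transporters, Slc34a3 (chromosome 2, 25228898 to 25234364, minus strand) had 4.45, 10.4, 9.23, 13.2 and 9.55 CPM in wild type libraries 1 to 5, against 49.99, 10.5, 50.01, 9.22 and 39.4 CPM in saline libraries 1 to 5. Saline libraries 1, 3 and 5 lay above all wild type mice and saline libraries 2 and 4 lay within their range. Slc34a3 rose by 1.77 ± 0.48 on the log2 scale (SE, edgeR adjusted p = 0.0419). The call was lost without any 1 of the wild type libraries or of saline libraries 1, 3 and 5 (adjusted p between 0.0544 and 0.126). With the proximal tubule covariate the value was 0.26 (adjusted p = 0.985).

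Slc34a1, the main phosphate transporter of the brush border (chromosome 13, 55398187 to 55415592, plus strand), had the same arrangement of mice. Its values were 500.3, 592.8, 644.5, 1158 and 433.2 CPM in wild type libraries 1 to 5 and 4091, 1084, 4180, 893.3 and 2418 CPM in saline libraries 1 to 5, so the groups overlapped through saline libraries 2 and 4. The log2 fold change of 1.93 ± 0.55 missed the threshold (edgeR adjusted p = 0.0511). It did pass when saline library 2 or 4 or atrasentan library 6 or 7 was left out (adjusted p between 0.0181 and 0.0346).

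The PiT transporters were much steadier. Slc20a1 lay between 31.1 and 41.1 CPM in wild type and between 34.3 and 40.9 CPM in saline mice (log2 fold change 0.05, 95% interval -0.19 to 0.29, -0.03 with upper-quartile scaling). Slc20a2 ran from 29.9 to 41.3 CPM and from 37.3 to 59.8 CPM (0.37, interval 0.02 to 0.72, edgeR adjusted p = 0.203). Saline libraries 1 and 3 were the mice with the high Slc20a2.

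Of the hormone receptors and their partners, none passed. Kl, the gene of klotho (chromosome 5, 150952607 to 150993817, plus strand), had 77.5, 64.8, 97.2, 147.2 and 59.0 CPM in wild type libraries 1 to 5 and 444.8, 130.5, 490.1, 127.8 and 264.3 CPM in saline libraries 1 to 5. Again saline libraries 2 and 4 lay within the wild type range and the others above it (1.71 ± 0.57, edgeR adjusted p = 0.0842, or 0.0393 without atrasentan library 6). Vdr lay between 52.1 and 90.1 CPM in wild type and between 60.5 and 153.1 CPM in saline mice (0.65 ± 0.31, adjusted p = 0.235). Fgfr1 ran from 66.3 to 130.1 and from 43.6 to 75.3 CPM (-0.59 ± 0.23, adjusted p = 0.137), and Pth1r from 563.7 to 940.3 and from 283.9 to 641.8 CPM (-0.51 ± 0.22, adjusted p = 0.185). For each of these last 2 genes 4 of the 5 saline mice lay below all wild type mice.

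The second question is what differs after endothelin A receptor blockade. In atrasentan against saline ob/ob mice, 9 of the 10 genes fell, none rose and Slc20a2 did not pass, where 33.8% of all tested genes were called, 18.5% lower and 15.3% higher. At an unadjusted p under 0.05 all 10 were lower (beside 44.9% of all genes), and DESeq2 and limma-voom each called 9 lower and 0 higher. The median log2 fold change of the 10 was -2.19, beside -0.01 over all genes. The groups did not overlap for Cyp24a1, Slc34a1 and Slc34a3, 3 of the 10, beside 11.8% of all genes. This comparison and the first share the saline mice.

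Cyp24a1 fell furthest of the 10. Over the 7 atrasentan mice its lowest, median and highest values were 0.640, 1.36 and 3.62 CPM, against 19.97 CPM in the lowest saline mouse. The log2 fold change was -5.09 ± 0.56 (SE, edgeR adjusted p = 7.13e-05), a 34.1-fold lower level. It was the 1 call of the 10 left with the mean of the proximal tubule markers as covariate (-5.02, adjusted p = 0.0485), and the groups do not overlap in that mean. With this covariate Slc34a3 was at -1.50, Slc34a1 at -0.37, Vdr at -0.31 and Kl at -0.0020, and Cyp27b1 turned to 0.58 (adjusted p between 0.348 and 0.999). With the podocyte minus proximal tubule marker mean as covariate, Cyp24a1, Vdr, Slc34a1, Slc34a3, Kl, Fgfr1 and Pth1r were called. Their adjusted p lay between 0.00148 and 0.03455 (edgeR), and Cyp27b1, Slc20a1 and Slc20a2 were not called.

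Cyp27b1 had 1.58, 4.39 and 18.9 CPM as lowest, median and highest values with atrasentan. Atrasentan library 6, the highest, lay among the saline mice and the other 6 lay below them (-3.43 ± 0.83, edgeR adjusted p = 0.00507). Its call was lost without saline libraries 1 and 3 (-1.72, adjusted p = 0.168). Vdr fell from 108.7 ± 43.5 to 31.7 ± 15.6 CPM, with 20.9, 26.3 and 65.6 CPM as its lowest, median and highest atrasentan values (-1.78 ± 0.29, adjusted p = 0.000380). Here too atrasentan library 6 was the mouse that reached the saline range.

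Slc34a1 fell from 2533 ± 1576 to 238.3 ± 202.9 CPM (-3.41 ± 0.52, edgeR adjusted p = 0.000286), and its lowest, median and highest atrasentan values were 54.4, 178.3 and 679.0 CPM. All 7 mice lay below the lowest saline mouse, at 893.3 CPM. Slc34a3 fell from 31.8 ± 20.5 to 1.996 ± 0.919 CPM (-3.99 ± 0.46, adjusted p = 9.05e-05), with 0.611, 1.91 and 3.15 CPM as lowest, median and highest values against at least 9.22 CPM with saline. The groups were apart in both genes.

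Kl had 16.0, 30.5 and 135.1 CPM as lowest, median and highest values, and 6 of the 7 mice lay below all saline mice (-2.59 ± 0.52, edgeR adjusted p = 0.00153). Pth1r fell from 500.0 ± 131.9 to 266.2 ± 71.1 CPM (-0.91 ± 0.20, adjusted p = 0.00300) and Fgfr1 from 61.4 ± 11.4 to 34.3 ± 10.1 CPM (-0.84 ± 0.21, adjusted p = 0.00644). In both the groups overlapped by the low saline library 2. The smallest change that passed was that of Slc20a1, from 37.4 ± 2.58 to 30.2 ± 4.70 CPM (-0.30 ± 0.11, adjusted p = 0.0355). This call was lost when any 1 of saline libraries 1 to 4 or atrasentan libraries 1, 3, 4, 6 and 7 was left out (adjusted p between 0.0547 and 0.0808). Slc20a2 stood at 36.0 ± 6.70 against 46.4 ± 11.2 CPM (-0.37, 95% interval -0.69 to -0.04, adjusted p = 0.0727). It did pass when saline library 2 (adjusted p = 0.0456) was left out, and likewise atrasentan library 6 (adjusted p = 0.0452).

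The third comparison sets atrasentan mice against wild type mice. It shares a group with each of the others. Here 6 of the 10 genes fell and none rose, beside 29.2% of all tested genes called, 14.5% lower and 14.7% higher. At an unadjusted p under 0.05, 7 of the 10 passed, all lower (beside 40.8% of all genes). DESeq2 called 6 lower and 0 higher, and limma-voom 5 and 0. The median of the 10 was -1.27, beside -0.01 over all genes. The groups did not overlap for Slc34a3, Fgfr1 and Pth1r, 3 of the 10, beside 13.2% of all genes.

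The receptors Pth1r and Fgfr1 stood lower with atrasentan than in wild type in every mouse. The highest atrasentan mouse had 361.7 CPM of Pth1r against 563.7 in the lowest wild type mouse (-1.42 ± 0.20, edgeR adjusted p = 0.000101). For Fgfr1 these values were 44.9 and 66.3 CPM (-1.43 ± 0.21, adjusted p = 0.000126). Vdr fell by 1.12 ± 0.29 on the log2 scale (adjusted p = 0.00712), with 6 of the 7 mice below all wild type mice. With the mean of the proximal tubule markers as covariate these 3 calls held (Pth1r -1.24, Fgfr1 -1.41 and Vdr -0.58, adjusted p = 0.00127, 0.000905 and 0.0443). Podocyte markers moved with Pth1r: 12 of 12 fell in this comparison with a median log2 fold change of -1.89, and their part in the fall of Pth1r was not tested.

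Slc34a3 fell by 2.22 ± 0.44 (edgeR adjusted p = 0.00128), with every atrasentan mouse below the lowest wild type mouse at 4.45 CPM. Slc34a1 fell by 1.48 ± 0.49 (adjusted p = 0.0307), a call lost without wild type library 3 or 4 or any 1 of atrasentan libraries 1 to 4 (adjusted p between 0.0505 and 0.0992). With the same covariate Slc34a3 (-1.24, adjusted p = 0.0481) and Slc34a1 (-0.44, adjusted p = 0.0442) were still called. Cyp24a1 fell by 1.89 ± 0.52 (adjusted p = 0.0115), and this was lost without wild type library 4 (-1.37, adjusted p = 0.0575) and with the proximal tubule covariate (-1.85, adjusted p = 0.0563). The Cyp24a1 call held with the podocyte minus proximal tubule mean as covariate (adjusted p = 0.0154). Cyp27b1 stood at 6.59 ± 5.98 with atrasentan against 4.13 ± 5.86 CPM in wild type (0.68 ± 0.84, adjusted p = 0.581, 95% interval -1.09 to 2.45). The log2 ratio of Cyp24a1 to Cyp27b1 was -1.79 ± 1.01 with atrasentan against 1.37 ± 2.02 in wild type (SD, n = 7 and 5), and the difference was -3.16 (exact permutation p = 0.00379, adjusted p = 0.0114). In wild type libraries 1 to 5 this ratio was 0.63, 0.51, -1.13, 3.85 and 3.01. Libraries 4 and 5, the highest, held only 28 and 8 reads of Cyp27b1. With any 1 library left out the difference lay between -3.79 and -2.54. Kl (-0.88, adjusted p = 0.206), Slc20a1 (-0.26, adjusted p = 0.0797) and Slc20a2 (0.00, adjusted p = 0.986, negative with upper-quartile scaling) did not pass. Kl passed without atrasentan library 6 (-1.40, adjusted p = 0.0266), and Slc20a1 without atrasentan library 2 or 5 (adjusted p = 0.0290 and 0.0317). The covariates moved Kl in different ways. It passed with the podocyte minus proximal tubule mean (-1.83, adjusted p = 0.000615), and was at -0.0092 with the proximal tubule mean (adjusted p = 0.987).

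**Figure D3:**
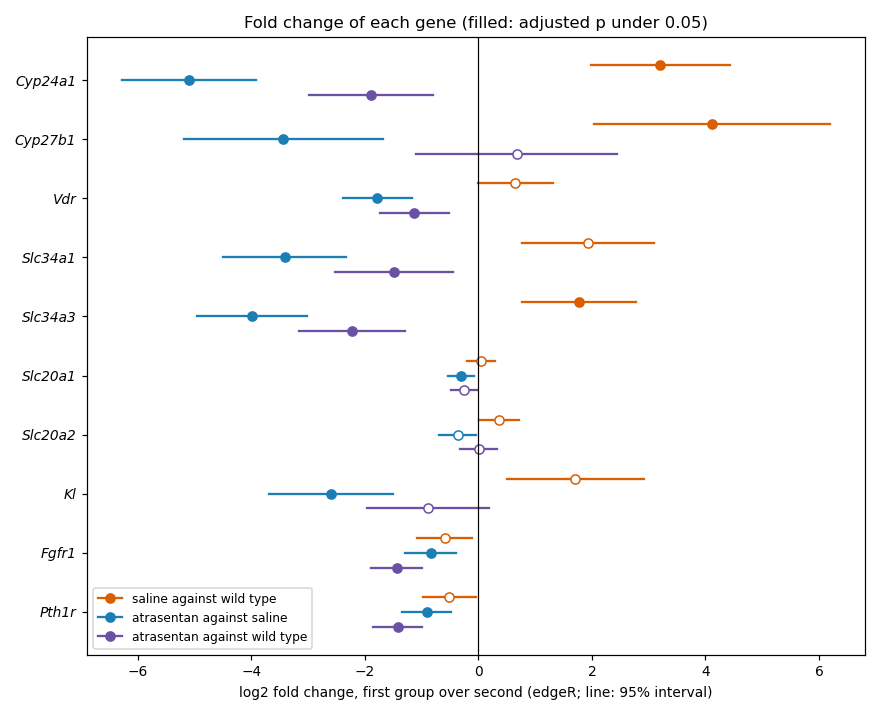
Log2 fold change (edgeR) of the 10 genes in the 3 comparisons, with 95% intervals as lines and filled points for an adjusted p under 0.05. Cyp24a1 has the lowest value with atrasentan against saline (-5.09), and the Slc20a1 and Slc20a2 intervals are the narrowest near 0.

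Because the tubule marker level differed between groups, each gene was also set against the mean log2 CPM of the 20 proximal tubule markers, none of which is among the 10 genes. Slc34a1, Slc34a3 and Kl kept close to these markers across wild type and saline mice. Slc34a1 stood 3.74 ± 0.13 above the marker mean with saline and 3.62 ± 0.24 above it in wild type (SD, n = 5 each), and the difference was 0.12 (exact permutation p = 0.349, adjusted p = 0.455). Its spread between saline mice was thus small on this scale, although its CPM ranged from 893.3 to 4180. For Slc34a3 the difference was -0.13 (adjusted exact p = 0.658) and for Kl -0.05 (adjusted exact p = 0.851). Relative to the markers, Pth1r (-2.16), Fgfr1 (-2.18), Slc20a1 (-1.56) and Vdr (-1.03) were lower with saline, each saline mouse below each wild type mouse (exact p = 0.00794 each, the smallest that 5 against 5 mice can give, adjusted p = 0.0253), and so was Slc20a2 (-1.27, adjusted exact p = 0.0352). Cyp24a1 (1.48, adjusted exact p = 0.167) and Cyp27b1 (2.91, adjusted exact p = 0.0560) were higher without passing. Each offset also holds the move of the marker mean, which was 1.62 higher with saline than in wild type. The log2 fold changes of Pth1r, Fgfr1, Slc20a1, Vdr and Slc20a2 themselves were -0.51, -0.59, 0.05, 0.65 and 0.37, and none was called.

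With atrasentan, the brush border transporter Slc34a1 stood lower relative to the mean of these markers. The Slc34a1 offset was 3.03 ± 0.28 (SD, n = 7), which was 0.71 below that with saline (exact permutation p = 0.00253, adjusted p = 0.0253) and 0.59 below that in wild type (exact p = 0.00631, adjusted p = 0.0253). The markers did not move alike. Against saline 17 of the 20 fell, with a median log2 fold change of -3.02 beside -3.41 for Slc34a1. Slc7a13 (0.36), Aqp1 (-0.43) and Napsa (-0.85) were not called. Against wild type 7 fell and Slc7a13 rose by 3.93, with a median of -1.03 beside -1.48 for Slc34a1. The part of these 3 markers in the offsets was not tested. Slc34a3 was lower by 0.98 against saline (adjusted exact p = 0.0715) and by 1.11 against wild type (adjusted exact p = 0.0450). Cyp24a1 was lower by 2.13 against saline (adjusted exact p = 0.0354) and by 0.65 against wild type (adjusted exact p = 0.314). Cyp27b1 differed by -0.39 from saline (adjusted exact p = 0.449) and was 2.51 higher than in wild type (adjusted exact p = 0.0253). The mean offset of Kl differed by -0.04 from saline and by -0.09 from wild type (adjusted exact p = 0.918 and 0.851). Between atrasentan mice this offset spread widely, from -0.58 to 1.76 (SD 0.80, beside 0.12 with saline), so Kl did not keep close to the proximal tubule markers there. The mean of the distal tubule markers also ran from 1.91 to 6.29 between these mice, and its part in the level of Kl was not tested. Against saline, Slc20a1, Slc20a2, Fgfr1, Pth1r and Vdr were higher relative to the proximal tubule markers, by 2.46, 2.42, 1.91, 1.87 and 1.00 (adjusted exact p = 0.0253 each). In CPM each of these genes was lower with atrasentan, by log2 fold changes of -0.30, -0.37, -0.84, -0.91 and -1.78. The proximal tubule marker mean fell by 2.78, and this fall enters each of these offsets. Of the 10 offsets 7 passed between atrasentan and saline and 4 between atrasentan and wild type. Without atrasentan libraries 2 and 5 these counts were 3 and 0. Without saline libraries 1 and 3 both were 0. Fewer mice raise the smallest p-value that the exact test can give. These lower counts therefore cannot show whether the offsets rest on the mice left out. The comparison with wild type holds no saline mouse, and its raw p-values for its 4 genes were as before (Slc34a1 exact p = 0.00631, adjusted p = 0.0606). Its loss came through the adjustment over all 30 tests.

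**Figure D4:**
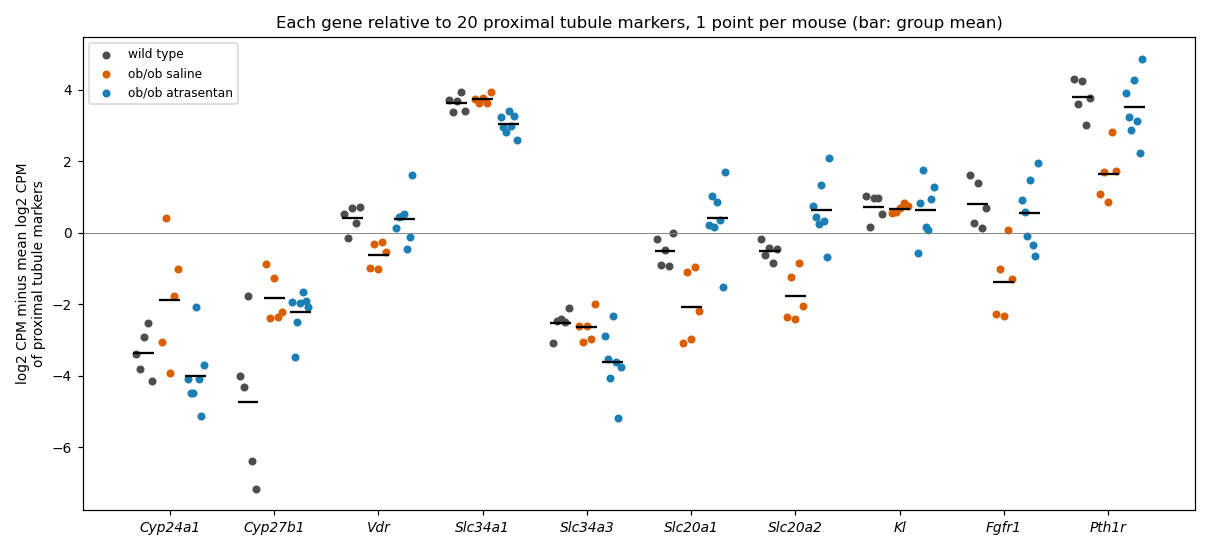
Log2 CPM of each gene minus the mean log2 CPM of 20 proximal tubule markers, with 1 point per mouse and a bar at the mean of wild type (n = 5), ob/ob saline (n = 5) and ob/ob atrasentan (n = 7) mice. Slc34a1 (3.74 ± 0.13) and Kl (0.67 ± 0.12) have the tightest saline points, and the Pth1r and Fgfr1 points of the saline mice sit below those of wild type mice.

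By the smallest root mean square difference between profiles of log2 CPM over the 17 libraries, each centered on its mean, the genes nearest to Slc34a1 were Cyp2d26 (0.15), Slc47a1 (0.16) and Cyp2j5 (0.19). The gene nearest to Slc34a3 was the glucose transporter Slc5a2 (0.39), one of the 20 markers. Kcnj16 (0.37) and Slc44a4 (0.39) were near to Kl, after the predicted gene Gm15848 (0.35). Ahcyl2 (0.28), Lgr4 (0.29) and Flrt1 (0.32) were nearest to Vdr. The podocyte gene Arhgap24 (0.18) was nearest to Pth1r, followed by Aif1l (0.19) and Cpq (0.20), and Pnmal2 (0.17), Abca2 (0.20) and Arhgef18 (0.20) to Fgfr1. The hydroxylases had no such close neighbor. Near to Cyp24a1 were Slc16a14 (1.11) and Slc5a12 (1.12), and the nearest to Cyp27b1 was Nat8f5 at 0.96, followed by Marc1 (1.05) and Cyp2e1 (1.07). Slc20a1 and Slc20a2 varied too little over the libraries for this measure (SD of log2 CPM of 0.22 and 0.31, under the minimum of 0.5).

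Other genes of these pathways came from a list of 47 symbols, of which 46 were found and 41 could be tested. The hormones themselves had no reads. Fgf23 and Pth were at 0 reads in all 17 libraries, which over 639099926 gene reads allows up to 0.00469 CPM (3 reads, counting error only). In saline against wild type mice 7 of the 41 rose and none fell (list median 0.47, beside 3.21% of all genes called higher). The calcium-binding protein S100g rose by 2.59 ± 0.72, the calcium channel Trpv5 by 2.57 ± 0.73, the vitamin D binding protein Gc by 2.49 ± 0.55 and Galnt3, an enzyme that glycosylates FGF23, by 2.30 ± 0.45 (edgeR adjusted p = 0.0456, 0.0485, 0.0204 and 0.0119). Of these, the call of Galnt3 held when any 1 of the 17 libraries was left out (adjusted p of at most 0.0412). Those of S100g, Trpv5 and Gc were each lost without saline library 1 (adjusted p = 0.129, 0.146 and 0.0557) and without 8, 10 and 5 other single libraries. Markers of distal tubule, where S100g and Trpv5 are made, had a mean of 5.53 ± 0.85 with saline and 4.57 ± 0.37 in wild type (exact permutation adjusted p = 0.0667), and their part in these rises was not tested. With the proximal tubule covariate none of the 4 was called (S100g 0.73, Trpv5 0.77, Gc 1.10 and Galnt3 0.94, adjusted p between 0.464 and 0.933).

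In atrasentan against saline mice 16 of the 41 fell and 6 rose (median -0.37, beside 18.5% of all genes lower and 15.3% higher). The scaffold Pdzk1, which anchors NaPi-IIa, fell by 3.03 ± 0.48, and the transporter Slc34a2 fell by 2.98 ± 0.83. The endocytic receptors megalin and cubilin take up filtered vitamin D with its binding protein. Lrp2, the gene of megalin, fell by 2.95 ± 0.46 and Cubn fell by 2.90 ± 0.45 (in this order, edgeR adjusted p = 0.000351, 0.0110, 0.000327 and 0.000308). The proximal tubule marker mean was lower by 2.78 in the same comparison. With it as covariate these calls were lost: Pdzk1 was at 0.0489 and Lrp2 at 0.0077, turned in sign, with Cubn at -0.23 and Slc34a2 at -0.36 (adjusted p between 0.820 and 0.992). Slc34a2 was scarce, at 2.23 ± 0.947 CPM with saline. Rxrb, a partner of Vdr on DNA, rose by 0.36 ± 0.09 (adjusted p = 0.00443), and the G protein gene Gnas, which acts downstream of Pth1r, rose by 0.29 ± 0.09 (adjusted p = 0.0161, or 0.0540 without saline library 3). In both genes, every atrasentan mouse lay above every saline mouse. With the covariate neither was called (Rxrb 0.35, adjusted p = 0.315, and Gnas 0.12, adjusted p = 0.753).

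In atrasentan against wild type mice 11 of the 41 rose and 4 fell (median 0.21, beside 14.7% higher and 14.5% lower over all genes). The FGF receptor genes went different ways. Fgfr4 fell by 2.25 ± 0.42, from 15.5 to 3.25 CPM, and Fgfr3 rose by 1.12 ± 0.26, from 101.9 to 220.7 CPM (edgeR adjusted p = 0.000846 and 0.00423). Fgfr3 was already higher than wild type with saline, at 205.5 CPM (1.01, adjusted p = 0.0433). Its difference between atrasentan and saline did not pass (0.10, adjusted p = 0.778). Fgfr4 with saline, at 19.6 CPM, was not called against wild type (0.34, adjusted p = 0.733), and atrasentan lay below saline (-2.59, adjusted p = 0.000420). Among genes that FGF signals induce, the immediate early gene Egr1 fell by 2.08 ± 0.37 and the phosphatase Dusp6 rose by 0.51 ± 0.12 (adjusted p = 0.000553 and 0.00319). Spry2 (0.48), Spry4 (0.47) and Etv5 (0.80) also rose (adjusted p = 0.0207, 0.0403 and 0.00367) and Etv4 did not pass (0.61, adjusted p = 0.267), so Egr1 was the 1 of these 6 that fell. These 4 genes are named after their values were seen. Rxrb rose by 0.36 ± 0.09 (adjusted p = 0.00474). Pthlh, the gene of the parathyroid hormone-related protein, rose by 1.18 ± 0.43 from 0.335 to 0.763 CPM (adjusted p = 0.0467), and this call was lost without any 1 of 13 of the 17 libraries (adjusted p between 0.0528 and 0.0952) and with the proximal tubule covariate (0.89, adjusted p = 0.180). For Gc the mean was 3.19 ± 1.37 CPM in wild type, 17.8 ± 11.2 in saline and 10.1 ± 6.14 in atrasentan mice. With atrasentan Gc stood 1.67 ± 0.51 above wild type on the log2 scale (edgeR adjusted p = 0.0200), with 5 mice above all wild type mice. Its difference from saline did not pass (-0.81, edgeR adjusted p = 0.191).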

How the data were processed

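Poly(A) RNA of glomeruli-enriched kidney cortex was sequenced as single-end reads from a kit that does not mark strand, per the labels' protocols. The submitters' processing notes name STAR, HTSeq, DESeq2, edgeR, limma and GRCm38. Not given in the sources used here: the role of each tool, the gene annotation, and any use of strand during counting. The authors deposited raw read counts per gene, which were analysed here, and a table of normalized log2 values, which served as 1 alternative. Counting lines that name no gene were kept out: reads outside genes were 3.17 to 8.58% of a library (3.97% on average with atrasentan, the lowest group), reads with several alignments 23.4 to 31.8% and ambiguous reads 2.93 to 3.37%. Gene IDs were matched to GENCODE M21, and 53274 of 53379 had a symbol.

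Counts were scaled by TMM, filtered by group (filterByExpr) and fitted in edgeR 4.0.16 (R 4.3.3) with 3 group terms over all 17 libraries. Quasi-likelihood tests were two-sided, with Benjamini-Hochberg adjustment over 17766 genes and a call at an adjusted p under 0.05. Levels are CPM with TMM-scaled library sizes. Offsets from marker means, the Cyp24a1 to Cyp27b1 ratio and marker lists used log2 CPM (prior count 2) and exact two-sided permutation tests, adjusted over 30, 3 and 21 tests. The procedure was tested on simulated data. No library repeats another: all 41 pairs within groups differed by more than sampling noise. The labels give 1 batch and do not say how litters or cages were shared, so p-values measure the spread between these mice. Numbers in the library names run by group, so group and any order of handling cannot be told apart.

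The 10 genes, the pathway list and the marker lists were chosen with earlier results of these data known. All 10 genes are reported in every comparison. From the pathway list, up to 4 called genes per direction with the largest change among those whose groups do not overlap are named, beside Fgf23, Pth and Gc. Alternatives were other scalings, no filter, DESeq2 1.42.0, limma 3.58.1, fits of 2 groups, marker covariates and left-out libraries. One result of the profile comparison is not reported here.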

Additional observations from a re-analysis of the deposited data

Results flagged for a closer look

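In 30 sets of values (10 genes in 3 groups), 4 held a mouse far from the others of its group by Dixon's gap rule on CPM. The rule flags about 1 in 20 sets by chance only where values are normally spread. CPM were not put on a log scale here, so this count cannot be set against that rate. Cyp27b1 stood at 14.45 CPM in wild type library 3, against 2.84 CPM in the next highest mouse. The other 3 are all atrasentan library 6. It had 18.9 CPM of Cyp27b1 against 9.01 in the next mouse, 65.6 CPM of Vdr against 35, and 679.0 CPM of Slc34a1 against 226.9. This mouse also had the highest proximal tubule marker mean of its group (6.15), and the part of that level in these values was not tested.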

How the results depend on the processing

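Over the alternatives, the 10 genes gave 840 values, of which 737 kept their direction and side of the threshold, 57 lost the call, 19 gained one and 27 changed sign. No paired analysis was possible because the labels number no replicates.

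Saline against wild type depended most on the setting. Against 910 genes and 3 of the 10 called, DESeq2 gave 2000 and 5, the 2 groups alone 1430 and 5, limma-voom 550 genes, the proximal tubule covariate 24 and 0, and the podocyte minus proximal tubule covariate 1 and 0. Leaving out saline libraries 1 and 3 gave 54 and 1, with 0 of 10 offsets (5 before), 0 of 7 marker lists (3 before) and a hydroxylase ratio of 0.15. Log2 values changed sign under the proximal tubule covariate for Vdr (-0.27), Slc34a1 (-0.0766) and Kl (-0.0072), and under the podocyte minus proximal tubule covariate for Vdr (-0.43), Slc34a1 (-0.22), Slc20a1 (-0.0193), Kl (-0.54) and S100g (-0.0358). Slc20a1 was at -0.033 with upper-quartile scaling. With saline libraries 1 and 3 left out, the loop of Henle mean was at -0.24 and the endothelial mean at 0.11.

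For atrasentan against saline (6001 genes, 9 of 10), the proximal tubule covariate left 28 genes and 1 of 10, with Cyp27b1 at 0.58, Slc20a2 at 0.18, Pdzk1 at 0.0489 and Lrp2 at 0.0077. The other covariate left 2070 genes, and Cyp24a1, Vdr, Slc34a1, Slc34a3, Kl, Fgfr1 and Pth1r were still called. Without saline libraries 1 and 3 there were 2577 genes, 0 offsets (7 before), 2 marker lists (5 before), a Cyp27b1 offset of 0.10 and a ratio of -3.31, now past the threshold. Without atrasentan libraries 2 and 5 there were 3 offsets, 3 marker lists and a Kl offset of 0.0334.

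For atrasentan against wild type, Slc20a2 (0.00) was at -0.0018 with DESeq2 size factors and with the DESeq2 test, -0.0746 with upper-quartile scaling, -0.0076 with limma-voom, -0.0131 with the 2 groups alone, -0.0573 with the podocyte minus proximal tubule covariate, -0.0061 from the deposited log2 values and -0.0028 without saline libraries 1 and 3. Cyp27b1 was at -0.39 with that covariate. Without saline libraries 1 and 3 there were 0 offsets (4 before) and 3 marker lists (5 before), without atrasentan libraries 2 and 5 there were 0 offsets and a Vdr offset of 0.12, and a prior count of 0.5 gave 3 marker lists. Leaving out saline libraries removes no mouse from this comparison: the exact p-values of its 4 offsets were as before, and only the adjustment over all 30 tests changed. For the other counts the cause was not tested. In all 3 comparisons, leaving out mice of a compared group raises the smallest p-value that the exact test can give. A lower count of offsets or marker lists then cannot show whether these rest on the mice left out.

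With 1 library left out in turn, saline against wild type gave 216 to 1523 genes, 1 to 5 of the 10, 3 to 5 offsets, 1 to 4 marker lists, -0.0017 to 0.10 for Slc20a1, -0.19 to 0.0216 for the Kl offset and -0.12 to 0.0243 for the endothelial mean. The lowest gene count was without saline library 3 and the highest without saline library 4. Atrasentan against saline gave a ratio of -2.38 to -1.03 and a Kl offset of -0.23 to 0.16. Atrasentan against wild type gave 1 to 5 offsets, 3 to 5 marker lists, -0.0545 to 0.0794 for Slc20a2, -0.28 to 0.11 for the Kl offset and -0.24 to 0.10 for the Vdr offset. Depth limits Cyp27b1 most in wild type, where a library held as few as 8 reads of it.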
